A study of Mus musculus with 10 samples.

Results

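Voltage-gated sodium channel subunits were followed in the hippocampus of adult mice with and without DLK, a neuronal stress kinase upstream of JNK whose gene is Map3k12. The members were every array probe whose RefSeq accession belongs to one of 7 genes, Scn1a, Scn2a (Scn2a1 in older tables), Scn3a, Scn8a, Scn2b, Scn3b and Scn4b. Matched accessions gave 13 probes for 6 of the 7 genes, out of 39429 probes on the array, and no probe was matched to Scn3b, which is not analysed here. All 13 probes passed the filter on dim probes, which kept 28680 probes. The 6 genes were then read among 23572 features, each feature being 1 gene or 1 unnamed probe.

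The mice compared were DLK conditional knockouts (cKO, 5 mice) and DLK wild type (WT, 5 mice), with 1 two-colour Agilent array for each mouse. Both genotypes ate a tamoxifen diet for 3 weeks, so the diet is shared and is no difference between them. The sources used here name neither the recombinase, the cells that carry it and the exons it removed, nor the sex of the mice and their age beyond adult. Each value is a log2 ratio of the hippocampal sample, labelled with Cy5, over a commercial pool of mouse RNA, the Universal mouse reference, labelled with Cy3. No dyes were swapped, so the level of 1 ratio includes the dye and the makeup of the pool, while the cKO minus WT difference compares arrays of the same orientation. Levels of different probes are therefore not ranked against each other.

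A voltage-gated sodium channel consists of a large alpha subunit, which forms the pore and senses voltage, and of small beta subunits, which cross the membrane once and carry an immunoglobulin-like domain outside the cell. The channels open on depolarisation and carry the rising phase of the action potential. In brain neurons they are held at the axon initial segment and the nodes of Ranvier by ankyrin-G. Among the alpha subunits, Scn1a is best known from fast-spiking inhibitory interneurons, Scn2a from excitatory neurons and their developing axons, Scn3a from the embryonic brain, and Scn8a from mature axon initial segments and nodes. Among the beta subunits, those of Scn2b and Scn4b are linked to alpha subunits by a disulfide bond and that of Scn3b is bound without one, while the Scn4b protein is also known for its part in resurgent sodium current.

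The upstream sequences of 3 members are shown because the brightest probes of Scn1a and Scn2a had the highest Pearson correlation over the mice between different members, and the brightest probe of Scn4b varied most between mice. Each is the 250 bases before a RefSeq start in GRCm38.p6, written from 5′ to 3′ on the gene's strand. The Scn1a window is chr2:66440838-66441087 on the minus strand, the Scn2a window is chr2:65668436-65668685 on the plus strand at the downstream of the listed starts, and the Scn4b window is chr9:45138374-45138623 on the plus strand. Capitals mark the only match of a searched motif.
Scn1a: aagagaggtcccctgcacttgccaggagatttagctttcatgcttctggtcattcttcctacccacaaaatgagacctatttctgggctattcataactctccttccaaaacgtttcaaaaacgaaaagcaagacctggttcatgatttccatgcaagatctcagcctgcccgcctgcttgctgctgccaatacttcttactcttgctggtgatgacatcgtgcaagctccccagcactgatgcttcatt
Scn2a: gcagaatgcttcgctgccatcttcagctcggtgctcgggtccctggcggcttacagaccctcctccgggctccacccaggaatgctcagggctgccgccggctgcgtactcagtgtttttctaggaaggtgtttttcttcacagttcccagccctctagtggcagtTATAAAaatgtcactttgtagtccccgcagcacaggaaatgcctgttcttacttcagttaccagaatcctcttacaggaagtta
Scn4b: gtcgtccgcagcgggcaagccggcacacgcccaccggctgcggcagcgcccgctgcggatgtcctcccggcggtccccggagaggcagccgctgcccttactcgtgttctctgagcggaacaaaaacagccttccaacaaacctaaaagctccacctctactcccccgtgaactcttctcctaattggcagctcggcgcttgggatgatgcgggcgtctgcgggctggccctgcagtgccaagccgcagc
The windows hold 46.8% G and C with 4 CpG in Scn1a, 53.2% with 9 CpG in Scn2a and 66% with 23 CpG in Scn4b. Both strands were searched for an AP-1 site, spelled TGANTCA. The search took TGACGTCA as a cyclic AMP response element. The letters of the GC box, bound by Sp1, were GGGCGG. The TATA box was searched as TATAAA anywhere in the window. An E-box of the MYC kind was searched as CACGTG. Over 32851 promoters of the same length, 6.75% held the AP-1 letters, 1.55% the response element, 32.7% the GC box, 12.4% the TATA box and 6.02% the E-box. Across 7 windows for 5 members, the TATAAA shown for Scn2a was the only match.

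The labels were checked first with the targeted gene. Map3k12 read 0.64, 0.11, 0.64, 0.68 and 0.48 in cKO replicates 1 to 5, against 2.11, 1.76, 1.74, 1.87 and 2.15 in WT replicates 1 to 5. Every cKO mouse lay below every WT mouse. The mean was 0.51 ± 0.24 in cKO and 1.93 ± 0.19 in WT mice (SD, n = 5 each), a difference of -1.41 (SE 0.12, limma adjusted p = 0.00097467), with p = 0.00794 in an exact permutation test (two-sided), the lowest value that 5 against 5 allows. The lowest value, 0.11 in cKO replicate 2, came with a Cy3 signal of 314, against 102.5 to 128 on the other arrays. The Cy5 signal of this mouse, 390.5, was the highest of the cKO mice. It was 157.5 to 253 in the other cKO mice and 495 to 746 in WT mice. With Cy5 alone the Map3k12 difference was -1.18 (SE 0.15), and without cKO replicate 2 it was -1.31. Whether the probe lies in the deleted part is not given.

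Over all features, 1 of 23572 passed an adjusted p of 0.05 (0.00424%) in limma, and that feature was Map3k12 itself. Without adjustment, 911 features (3.86%) had p under 0.05, of which 668 were higher in cKO mice (2.83%) and 243 lower (1.03%). The median signal per array was 146 to 202 in Cy5 over a background of 29 to 31, and 131.5 to 141.5 in Cy3. Arrays of any pair correlated at 0.98 to 0.996 over the 23572 features. Slide 1 held 4 cKO arrays, slide 2 held 1 cKO and 3 WT arrays, and slide 3 held 2 WT arrays, so genotype within a slide rests on 1 cKO mouse. Of the marker lists, all 14 tested genes of the choroid plexus and ependyma list had a higher cKO mean, with a median difference of 0.802. So did 17 of 20 oligodendrocyte markers, with a median of 0.322, where 54.8% of all features did. All 12 markers of excitatory principal cells, among them Prox1 of dentate granule cells and Wfs1 of CA1, passed the filter on dim probes. WT replicate 1 stood apart in striatal markers, as given beside Scn4b.

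No sodium channel member differed between the genotypes beyond the spread over mice. Of the 6 genes, 0 passed the adjusted threshold in limma, where 0.00424% of all features did, and 0 had an unadjusted p under 0.05, where 3.86% did. That second count does not hold under every alternative, since single mice left out or array weights put Scn1a, Scn2a, Scn2b or Scn4b under an unadjusted p of 0.05, all with a higher cKO mean. Of the 13 probes tested one by one, 0 passed either, where 0.0105% and 3.82% of all kept probes did. Under alternatives, other probes of Scn1a, Scn2a and Scn8a went under an unadjusted p of 0.05 with a higher cKO mean. Scn3a probe A_66_P106808 did so with a lower cKO mean, at -0.54 without cKO replicate 1 (limma unadjusted p = 0.0303). With slide as a random block it was -0.47 (limma unadjusted p = 0.0252). The cKO mean was the higher one for 5 of 6 genes and 9 of 13 probes, where 54.8% of all features and 54.6% of all kept probes were higher, although Scn8a turned to -0.08 with median centring and Scn8a and Scn2a were -0.01 and 0.00 with quantile normalisation between arrays. The groups overlapped for every member probe, where 0.757% of kept probes did not overlap. The median difference was 0.11 over the 6 genes, where it was 0.008257 over all features. The differences behind it moved with the processing. For Scn1a, Scn2a, Scn3a, Scn8a, Scn2b and Scn4b they were 0.16, 0.00, -0.14, -0.01, 0.02 and 0.13 with quantile normalisation. In the same order they were 0.15, -0.07, -0.13, -0.03, 0.04 and 0.09 with Cy5 alone. They were 0.65, 0.44, 0.24, 0.04, 0.46 and 0.48 when every spot entered the background fit.

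**Figure D1:**
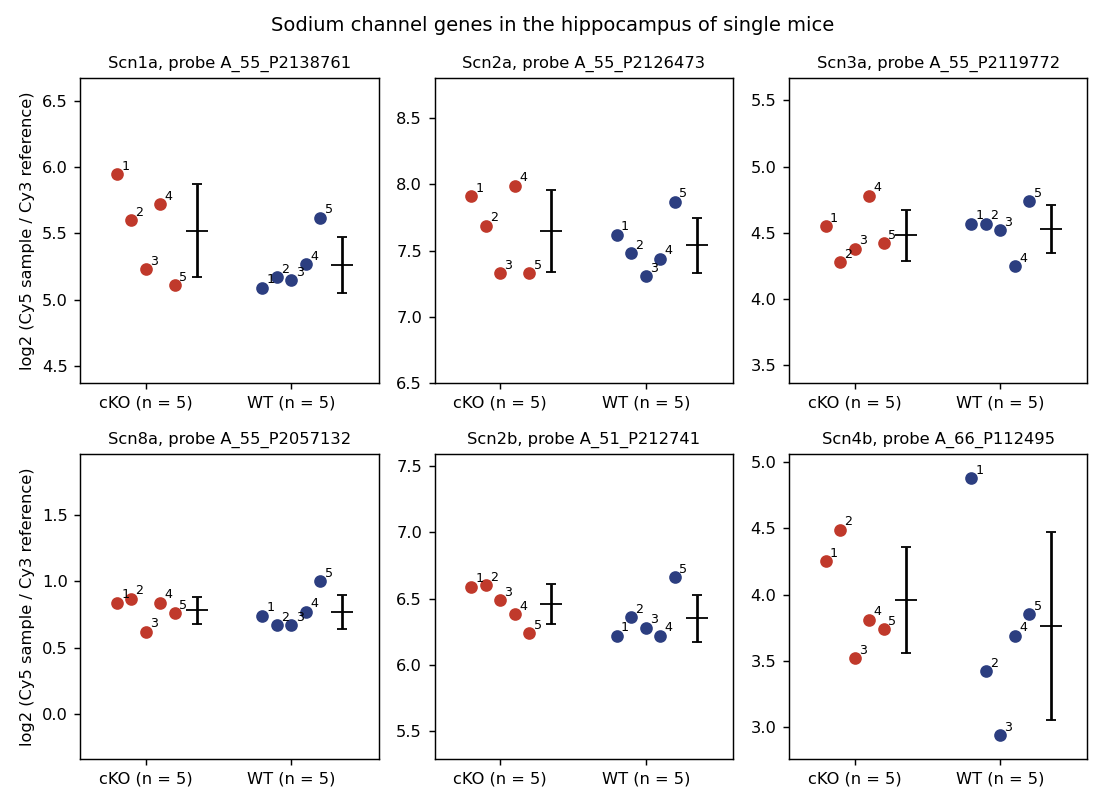
Log2 Cy5/Cy3 ratio of the brightest probe of each sodium channel gene, with a point for each of 5 cKO mice (left in each panel) and 5 WT mice (right) and the mean with its SD. The groups overlap in every panel, and the widest spread among the WT mice is that of Scn4b, where WT replicate 1 reads 4.88 and WT replicate 3 reads 2.94.

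Scn1a encodes the alpha subunit whose partial loss causes Dravet syndrome in people. Its brighter probe, A_55_P2138761, read 5.95, 5.60, 5.23, 5.72 and 5.11 in cKO replicates 1 to 5, against 5.09, 5.17, 5.15, 5.27 and 5.62 in WT replicates 1 to 5. The cKO replicates 1 and 4 were above all WT mice, while cKO replicate 5 was close to the lowest of all mice. The mean was 5.52 ± 0.35 in cKO and 5.26 ± 0.21 in WT mice (SD, n = 5 each), a difference of 0.26 (SE 0.15, 95% interval -0.07 to 0.59, limma adjusted p = 0.99995). The interval corresponds to folds of 0.951 to 1.51. The probe A_55_P2138769 read 1.41, 1.32, 1.30, 1.65 and 0.90 in cKO mice, against 0.96, 1.04, 1.03, 1.11 and 1.43 in WT mice. Its cKO minus WT difference was 0.20 (SE 0.12). Both probes put the same mice high: cKO replicates 1, 2 and 4 and WT replicate 5 were above the 10-mouse mean of each probe, and they parted only at cKO replicate 3.

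Scn2a encodes an alpha subunit of excitatory neurons and has 3 probes. The brightest, A_55_P2126473, read 7.91, 7.69, 7.33, 7.99 and 7.33 in cKO mice, against 7.62, 7.48, 7.31, 7.44 and 7.87 in WT mice. The ranges nearly coincide, with means of 7.65 ± 0.31 in cKO and 7.54 ± 0.21 in WT mice (SD, n = 5 each) and a difference of 0.11 (SE 0.14, 95% interval -0.21 to 0.42, limma adjusted p = 0.99995). The probe A_51_P127738 is spotted 10 times on each array and is the member probe with the best check of spot error. It read 5.88, 5.66, 5.55, 5.79 and 5.61 in cKO mice, against 5.56, 5.36, 5.47, 5.60 and 5.72 in WT mice. The SD over its spots on an array was 0.09 to 0.20, and the SE of the spot mean was 0.028 to 0.063. The SD over mice, 0.13 in each genotype, was larger than this spot error of a mouse's mean. Its difference was 0.15 (SE 0.08, 95% interval -0.02 to 0.33), and its unadjusted limma p of 0.0804 was the smallest among the 13 probes. The third probe, A_55_P2106514, gave 0.41 to 0.96 in cKO and 0.48 to 0.89 in WT mice, a difference of 0.06 (SE 0.11).

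Scn3a, the alpha subunit that is mainly embryonic, was the only gene of the 6 with a lower cKO mean in the reported processing, and array weights turned it to 0.03. Its brightest probe, A_55_P2119772, read 4.55, 4.28, 4.38, 4.78 and 4.42 in cKO mice, against 4.57, 4.57, 4.52, 4.25 and 4.74 in WT mice. The highest value was in a cKO mouse and the lowest in a WT mouse. Means were 4.48 ± 0.19 in cKO and 4.53 ± 0.18 in WT mice (SD, n = 5 each), a difference of -0.05 (SE 0.10, 95% interval -0.27 to 0.18, limma adjusted p = 0.99995). The probe A_66_P106808 read 4.13, 3.99, 2.84, 3.66 and 3.48 in cKO mice, against 3.88, 3.95, 3.76, 3.97 and 4.60 in WT mice. The cKO replicates 3, 4 and 5 lay below all WT mice and cKO replicates 1 and 2 lay above all of them but WT replicate 5. The difference of -0.41 (SE 0.22, 95% interval -0.89 to 0.07) was the most negative of the 13 probes.

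The reference signal of this probe was not alike on all arrays. The Cy3 signal of A_66_P106808 was 123.5 in cKO replicate 3 and 105 in cKO replicate 4, against 51.5 to 69 on the other 8 arrays. In cKO replicate 5, also below all WT mice, Cy3 was 56 and the Cy5 signal of 847 was the lowest of all arrays. The highest Cy5 signal, 2416.5, was that of WT replicate 5, with a Cy3 of 58. The part of the reference channel in the difference was not tested. With the Cy5 channel alone the difference was -0.19 (SE 0.15), without cKO replicate 3 it was -0.21, and within slide 2 it was 0.06. Other alternatives made it more negative. It was -0.94 (SE 0.51) with plain background subtraction, -0.69 (SE 0.58) with the scanner software's processed signals and -0.51 (SE 0.29) with an offset of 16. It was -0.47 (SE 0.18) with slide as a random block and -0.54 (SE 0.22) without cKO replicate 1. The dimmest member probe, A_51_P398037, is also an Scn3a probe, with a Cy5 signal of 50 to 72.5. It was well above background on 4 cKO and 4 WT arrays and differed by -0.05 (SE 0.08), a value that the offset of the background correction pulls towards 0.

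Scn8a encodes the alpha subunit of mature nodes and initial segments, and it showed the narrowest interval of the 6 genes. Its brightest probe, A_55_P2057132, read 0.84, 0.87, 0.62, 0.84 and 0.76 in cKO mice, against 0.74, 0.67, 0.67, 0.77 and 1.0 in WT mice. The mean was 0.78 ± 0.10 in cKO and 0.77 ± 0.13 in WT mice (SD, n = 5 each), a difference of 0.01 (SE 0.07, 95% interval -0.15 to 0.18, limma adjusted p = 0.99995). The interval corresponds to folds of 0.903 to 1.13. This was the only member probe with a bright reference, with a Cy3 signal of 1524 to 1783, so both sides of its ratio were well measured. The probe A_55_P2072339 read 0.52 to 1.11 in cKO and 0.63 to 0.86 in WT mice, a difference of 0.11 (SE 0.10). The probe A_55_P2072333 read 0.47 to 0.86 in cKO and 0.64 to 0.92 in WT mice, a difference of 0.00 (SE 0.09). All 3 probes of this gene had overlapping groups.

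Scn2b encodes a disulfide-linked beta subunit. Its probe, A_51_P212741, read 6.59, 6.60, 6.49, 6.38 and 6.24 in cKO mice, against 6.22, 6.36, 6.28, 6.22 and 6.66 in WT mice. The cKO replicates 1 to 4 lay above WT replicates 1 to 4, while WT replicate 5 was the highest of all. The mean was 6.46 ± 0.15 in cKO and 6.35 ± 0.18 in WT mice (SD, n = 5 each), a difference of 0.11 (SE 0.10, 95% interval -0.10 to 0.32, limma adjusted p = 0.99995).

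Scn4b, the other disulfide-linked beta subunit, varied most from mouse to mouse. Its probe, A_66_P112495, read 4.25, 4.49, 3.52, 3.81 and 3.74 in cKO mice, against 4.88, 3.42, 2.94, 3.69 and 3.85 in WT mice. Both extremes were WT mice. The mean was 3.96 ± 0.40 in cKO and 3.76 ± 0.71 in WT mice (SD, n = 5 each), a difference of 0.21 (SE 0.30, 95% interval -0.44 to 0.86, limma adjusted p = 0.99995). The difference was 0.49 without WT replicate 1 (limma unadjusted p = 0.0443, adjusted p = 0.99905) and 0.00 without WT replicate 3. The Cy5 signal was 2272.5, 2955.5, 1613, 1940.5 and 1515.5 in cKO mice, against 4463.5, 1398.5, 1034.5, 1620.5 and 2673 in WT mice, and the spread lay in this channel.

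Genes of the striatum, where Scn4b is abundant, were set beside it. WT replicate 1 was the highest mouse for 10 of 13 striatal markers. Adora2a, a receptor of striatal projection neurons, read 0.28 to 0.67 in cKO mice, against 2.73 in WT replicate 1 and 0.17 to 0.44 in the other WT mice. Rgs9, a striatal regulator of G protein signalling, read 2.61 to 2.75 in cKO mice, against 3.83 in WT replicate 1 and 2.62 to 2.69 in the other WT mice. The list mean was 1.92 to 2.08 in cKO mice, against 2.77 in WT replicate 1 and 1.84 to 2.04 in the other WT mice. The striatal list had 0 of 13 genes past the threshold, and its median difference was -0.185 with all mice and -0.002 without WT replicate 1. The part of these cells in the Scn4b values was not tested.

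**Figure D2:**
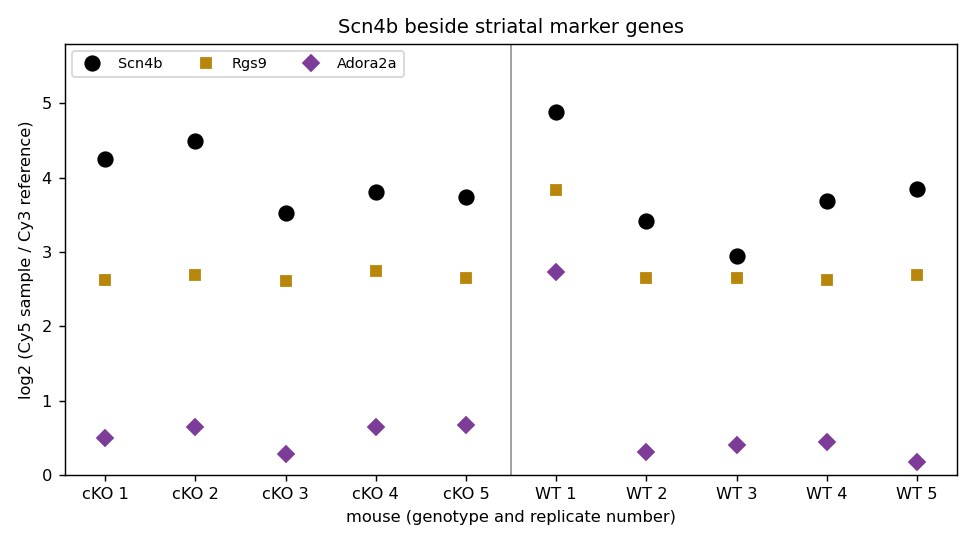
Log2 Cy5/Cy3 of Scn4b and of the striatal markers Rgs9 and Adora2a in each mouse, with cKO mice left of WT mice. WT replicate 1 is highest in all of them, at 4.88 for Scn4b, 3.83 for Rgs9 and 2.73 for Adora2a, while cKO replicate 2, second in Scn4b at 4.49, reads 2.69 for Rgs9 and 0.64 for Adora2a.

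**Figure D3:**
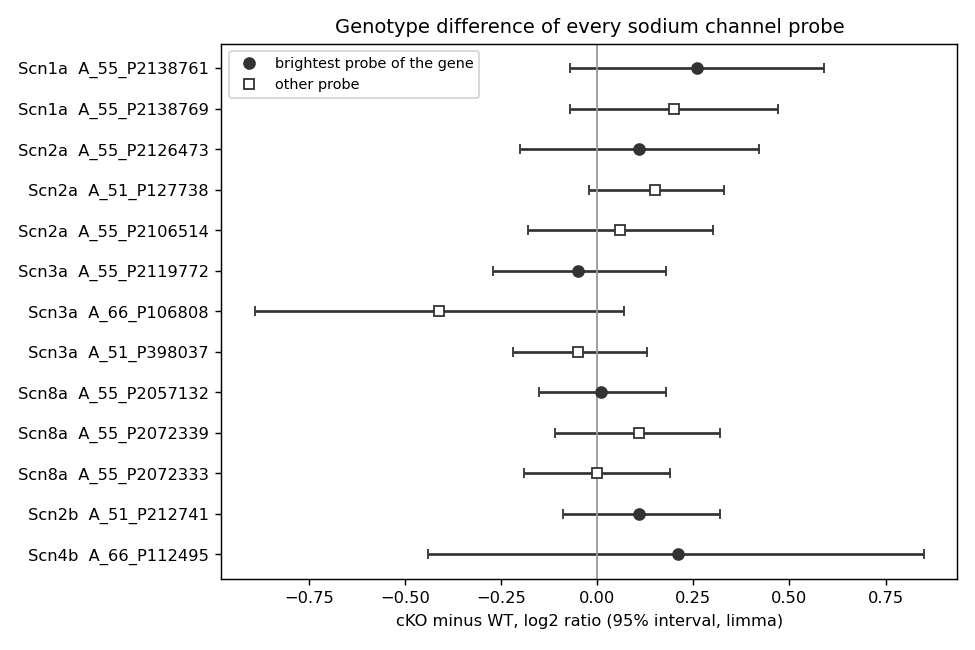
Difference of cKO minus WT in log2 Cy5/Cy3 with its 95% interval for each of the 13 member probes, grouped by gene. Every interval includes 0, and the differences run from -0.41 (Scn3a, A_66_P106808) to 0.26 (Scn1a, A_55_P2138761).

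Slide and genotype overlap in part, so the differences were also taken within slide 2, with 1 cKO and 3 WT mice. They were 0.42 for Scn1a, 0.17 for Scn2a, -0.19 for Scn3a, 0.15 for Scn8a, 0.34 for Scn2b and 0.50 for Scn4b, against 0.26, 0.11, -0.05, 0.01, 0.11 and 0.21 with all 10 mice. All 6 kept their direction. The unadjusted limma p was 0.00852 for Scn1a (adjusted p = 0.58776) and 0.0191 for Scn2b (adjusted p = 0.58776). These values rest on cKO replicate 2 alone, and in so small a comparison Map3k12 too missed the adjusted threshold, at -1.81. That Map3k12 value carries the high Cy3 signal of this mouse given above.

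For each of the 6 genes, the range over mice of 1 genotype was wider than the difference between genotypes. In Scn1a and Scn2a the same mice were high. The cKO replicates 1, 2 and 4 and WT replicate 5 lay above the 10-mouse mean of both genes' brightest probes, and cKO replicates 3 and 5 lay below both. Over the 10 mice, which share the arrays' preparation and the reference, the brightest probes of Scn1a and Scn2a had a Pearson r of 0.87 (Spearman 0.76), and those of Scn2a and Scn8a had an r of 0.77. Scn4b had an r of 0.49 with Scn2a (Spearman 0.66) and of 0.30 with Scn1a (Spearman 0.25). These are descriptions across mice of both genotypes and carry no test. Probes of 1 gene did not always run together, since A_55_P2057132 and A_55_P2072333 of Scn8a had an r of -0.07, as did A_55_P2119772 and A_51_P398037 of Scn3a. The second probe of each pair was dim, with a Cy5 signal of 57 to 105 and of 50 to 72.5. In both the reference was well above background on 0 arrays, so these r say little about the genes.

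**Figure D4:**
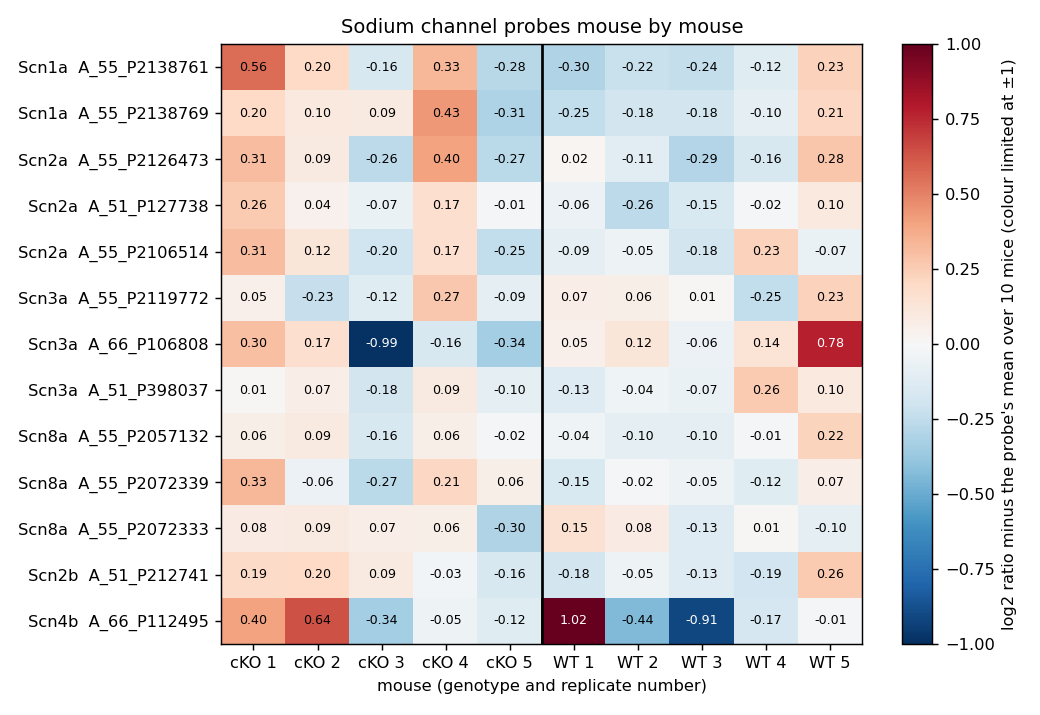
Deviation of each member probe from its own 10-mouse mean (log2 Cy5/Cy3, colour scale) in each mouse, with the cKO mice left of the WT mice. All Scn1a and Scn2a probes are above their mean in cKO replicates 1, 2 and 4. In WT replicate 5 all of them are too, except Scn2a A_55_P2106514 at -0.07. Scn4b is highest in WT replicate 1.

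Markers of cell types moved over the same mice. The 4 mice with the highest Scn1a were cKO replicates 1, 4 and 2 and WT replicate 5. They also had the 4 highest means of the list of excitatory principal cells, which was 3.42, 3.31, 3.23, 3.33 and 3.22 in cKO replicates 1 to 5, against 3.26, 3.13, 3.12, 3.17 and 3.36 in WT replicates 1 to 5. The same 4 mice had the 4 lowest means of the astrocyte list, which was 4.48, 4.30, 4.69, 4.37 and 4.83 in cKO mice, against 4.53, 4.50, 4.50, 4.55 and 4.22 in WT mice. The median Cy5 signal of the array was 184, 181.5, 169, 191 and 146 in cKO mice, against 172, 185.5, 171.75, 187 and 202 in WT mice. In RNA of whole tissue, fewer cells of a type and less RNA per cell cannot be told apart, and the part of cell makeup or signal in the Scn1a pattern was not tested. Of the 12 excitatory markers, 11 had a higher cKO mean, where 54.8% of all features did. The median difference of these markers was 0.064, with 0 past the threshold. The list of inhibitory interneurons, parvalbumin cells included, had a mean of 4.11 to 4.23 in cKO and 3.97 to 4.15 in WT mice. Its cKO mean was higher for 13 of 14 genes, with a median difference of 0.111, and its part in the Scn1a values was not tested either. Over the 10 mice, Scn1a had a Pearson r of 0.86 with the excitatory list mean (Spearman 0.71). The r was -0.61 with the astrocyte list (Spearman -0.67) and 0.43 with the inhibitory list (Spearman 0.16). Within genotype these r were 0.82, -0.82 and 0.16. With the median Cy5 signal of the array, Scn1a had an r of 0.59 (Spearman 0.66), and of 0.88 within genotype. Without the 2 mice farthest from the median of each measure, r was 0.77 for the excitatory list and -0.54 for the astrocyte list. It was then -0.08 for the inhibitory list and 0.56 for the Cy5 signal. The pattern was not that of Scn1a alone. With the excitatory list r was 0.85 for Scn2a, 0.75 for Scn8a, 0.70 for Scn2b, 0.61 for Scn4b and 0.37 for Scn3a. With the astrocyte list it was -0.72, -0.70, -0.61, -0.23 and -0.43 in the same order. These r come from 54 relations computed between members and such measures, and carry no test.

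**Figure D5:**
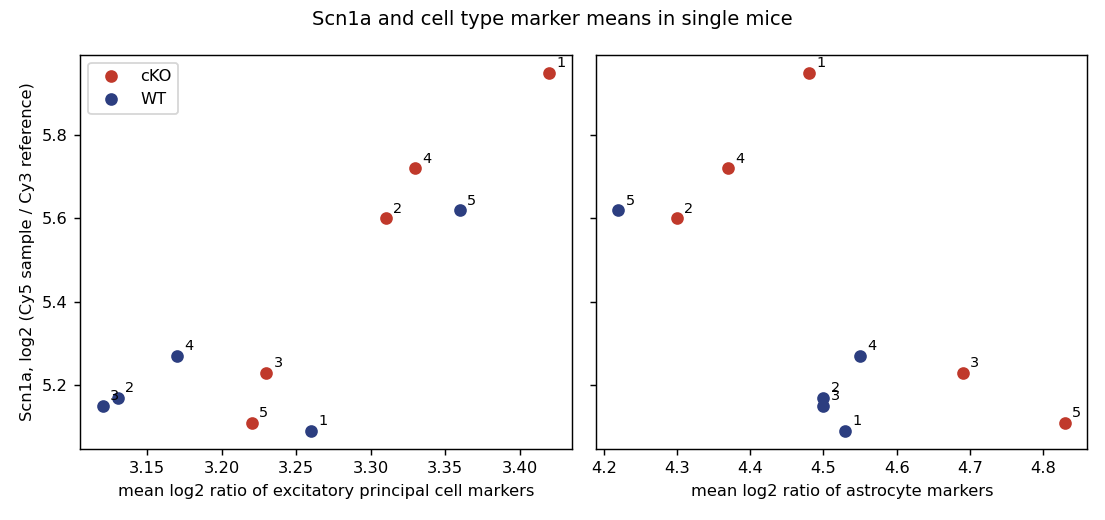
Scn1a (log2 Cy5/Cy3, vertical axis) in each mouse against the mean of the excitatory list and of the astrocyte list in the same mouse, cKO and WT mice in separate colours. The 4 mice with the highest Scn1a have the 4 highest excitatory means, 3.31 to 3.42, and the 4 lowest astrocyte means, 4.22 to 4.48.

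Genes whose log ratios ran most like each member over the 10 arrays were ranked by Pearson r among 16170 named genes. For Scn1a they were Slc25a4, the mitochondrial ADP/ATP carrier (r = 0.976), Sv2a, a synaptic vesicle glycoprotein (0.962), and Grwd1 (0.960). For Scn2a they were Slc25a12, a mitochondrial aspartate and glutamate carrier (0.983), Hdgfl2 (0.979) and Ccsap (0.978). For Scn3a they were Cacna1h, a T-type calcium channel (0.925), Ptpra, a receptor tyrosine phosphatase (0.923), and Serpinb3c (0.922). For Scn8a they were Abcc1, an efflux transporter (0.978), Slc9a8, a sodium and proton exchanger (0.961), and Cep164, a centriole protein (0.953). For Scn2b they were Tagap1 (0.955), P2ry1, a nucleotide receptor (0.947), and Pex26, a peroxisome protein (0.939). For Scn4b they were Car10, a carbonic anhydrase-related protein (0.913), Adrb3, a beta adrenergic receptor (0.909), and Gnao1, a G protein subunit (0.909). The highest of 16170 values is high by selection, and the arrays share the reference.

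Other sodium channel and NALCN genes gave 7 tested features of 10 listed, since Scn7a and Scn10a were too dim and no probe was matched to Scn9a. The cKO mean was higher for 6 of 7, where 54.8% of all features were higher. The median difference was 0.037, and 0 passed the adjusted threshold. Scn11a, an alpha subunit of sensory neurons, differed by -0.10 (SE 0.08), and Nalcn, the sodium leak channel, by 0.10 (SE 0.09).

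The FGF homologous factors bind the cytoplasmic tail of alpha subunits and alter inactivation. All 4 were tested, and 3 had a higher cKO mean, where 54.8% of all features did. The median difference was 0.03, and 0 passed the adjusted threshold. Fgf12 averaged 5.73 ± 0.06 in cKO and 5.54 ± 0.12 in WT mice (SD, n = 5 each), a difference of 0.19 (SE 0.07, limma unadjusted p = 0.0131, adjusted p = 0.99995). Fgf14 differed by -0.09 (SE 0.11) and Fgf13 by 0.05 (SE 0.14).

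Partners of the channels at the axon initial segment and node gave 24 tested genes of 24. The cKO mean was higher for 23, where 54.8% of all features were higher. The median difference was 0.10, and 0 passed the adjusted threshold. An unadjusted limma p under 0.05 was found for 3, where 3.86% of all features had one. Hapln2, a link protein of the matrix around nodes, averaged 1.76 ± 0.21 in cKO and 1.34 ± 0.13 in WT mice (SD, n = 5 each), a difference of 0.42 (SE 0.10, limma unadjusted p = 0.0011, adjusted p = 0.99995). Kcna1, a juxtaparanodal potassium channel, differed by 0.31 (SE 0.10) and Cntn1, the axonal contactin of paranodes, by 0.19 (SE 0.08), also with unadjusted p under 0.05. Hapln2 is also on the oligodendrocyte list, whose mean was 3.32 to 3.57 in cKO and 2.89 to 3.34 in WT mice. On that list 13 of 20 genes had an unadjusted limma p under 0.05, where 3.86% of all features did. The part of oligodendrocyte RNA in these values was not tested.

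Regulators of the channels and proteases of the beta subunits gave 27 tested genes of 29. The cKO mean was higher for 17, where 54.8% of all features were higher, and the median difference was 0.026. The adjusted threshold was passed by 0, and so was an unadjusted limma p of 0.05, where 3.86% of all features passed. The smallest p-values were those of Csnk2a1, the catalytic subunit of casein kinase 2 (0.14, SE 0.07), Camk2a, a calcium and calmodulin dependent kinase (0.23, SE 0.12), and Rbfox1, a splicing factor (0.10, SE 0.06).

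Precision set what could be seen. The median SE of a cKO minus WT difference was 0.123 over the 6 member genes, where it was 0.07445 over all features. Over the 6 genes, the 95% intervals reached folds as low as 0.737 and as high as 1.81, both for Scn4b. The sample channel was well above background on all 10 arrays for 12 of 13 probes, and the reference channel for 7 of 13. For the brighter Scn1a probe the reference was well above background on 0 arrays, with a Cy3 signal of 46 to 59. The ratio of this probe to the pool is therefore a bound. Its reported difference of 0.26 between genotypes includes this dim channel and the loess normalisation. With Cy5 alone, the difference was 0.15 (SE 0.17) for Scn1a, -0.07 (SE 0.17) for Scn2a, -0.13 (SE 0.10) for Scn3a, -0.03 (SE 0.06) for Scn8a, 0.04 (SE 0.13) for Scn2b and 0.09 (SE 0.33) for Scn4b.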

How the data were processed

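Hippocampal RNA of 5 cKO and 5 WT mice was measured on 2-colour arrays. The deposited scanner files hold spot intensity values (median signal and local background of each channel) that the authors read, per the file headers, with version 11.0.1.1 of Agilent's Feature Extraction software, and processed intensity values that this software background-subtracted and dye-normalised. The authors' deposited table holds log2 values. The submitters' processing notes list limma and give no settings. Each column of that table correlated at 0.99997 or more with the log2 ratios of Cy5 over Cy3 computed here, with a median absolute difference of at most 0.00411 and column medians of 0.012 to 0.0204, so its scale and direction are those of sample over reference without centring. It served as an alternative.

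From the scanner files, background was corrected with normexp of limma 3.58.1 in R 4.3.3 (offset 50), after leaving out spots marked non-uniform, and ratios were normalised by loess within arrays, with control spots (1377 of 44397) at weight 0. Spots of a probe were averaged without outlier spots, and probes with Cy5 well above background on at least 5 arrays were kept. The offset understates differences of dim probes. The brightest kept probe stood for a gene. Probe accessions were matched without versions to RefSeq genes of GRCm38.p6, which named 26581 probes (67.4%). The array headers name another build, so no gene coordinates are given beyond the RefSeq promoter windows, which came from a RefSeq table of GRCm38.p6.

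cKO minus WT was tested with lmFit and eBayes, two-sided, with Benjamini-Hochberg adjustment over all features (or all kept probes) and a threshold of 0.05. The test was checked on simulated data. Samples were grouped by the genotype in the labels. The labels number the samples but do not say that the mice were handled independently, so p-values measure the spread between these samples. The number of arrays is 1 limit on the precision.

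The members and gene lists were chosen with earlier results of these data known. Named genes were the members with all their probes, Map3k12, of each pathway list the genes with unadjusted p under 0.05 or else the 3 smallest, and the 3 genes most like each member by Pearson r over 10 arrays. Some genes that these rules name are not reported here. Alternatives covered background, marked spots, normalisation, filter, probe choice, slide, array weights, Cy5 alone and each array left out.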

Additional observations from a re-analysis of the deposited data

Results flagged for a closer look

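Within each genotype, the mouse farthest from the others was compared with its nearest neighbour for every member probe and Map3k12, which made 28 groups of 5 mice. A gap over 0.71 of the group's range marks a mouse as far apart, and chance marks about 1 in 20 groups. There were 2 such mice. Scn3a probe A_66_P106808 read 4.60 in WT replicate 5, where the next WT mouse read 3.97, a gap of 0.76 of the range. Scn8a probe A_55_P2072333 read 0.47 in cKO replicate 5, where the next cKO mouse read 0.84, a gap of 0.936 of the range. This probe was dim, with a Cy5 signal of 57 in that mouse.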

How the results depend on the processing

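Over 26 alternatives, the 6 member genes and their 7 other probes gave 296 differences, of which 264 kept the reported direction, 32 turned and 0 passed the threshold (smallest limma adjusted p 0.427), while 21 had an unadjusted p under 0.05. The cause of each change below was not tested. With plain background subtraction Map3k12 was -1.79 and missed the threshold, 0 genes passed, and Scn3a A_51_P398037 read 0.33. When every spot entered the background fit, Map3k12 was -1.26 and missed it, 0 genes passed, and Scn3a was 0.24, its probe A_51_P398037 0.02 and Scn8a A_55_P2072333 0.12. With Cy5 alone Map3k12 was -1.18 and missed it, 0 genes passed, 590 had unadjusted p under 0.05 (911 as reported), and Scn2a was -0.07, Scn8a -0.03, Scn3a A_51_P398037 0.06 and Scn1a A_55_P2138769 -0.02. Within slide 2 Map3k12 was -1.81 and missed it, 0 genes passed and 1984 had unadjusted p under 0.05. Within slide 2 and with slide as a fixed block alike, Scn3a A_51_P398037 was 0.04, Scn3a A_66_P106808 0.06 and Scn8a A_55_P2072333 0.01. An offset of 16 gave 0.09 for Scn8a A_55_P2072333, and the scanner software's processed signals gave -0.07 for Scn2a A_55_P2106514. Median centring gave -0.08 for Scn8a and 605 genes at unadjusted p under 0.05. Quantile normalisation gave 0.00 for Scn2a and -0.01 for Scn8a. Array weights gave 0.45 for Scn1a (unadjusted p = 0.00338), 0.31 for Scn2a (unadjusted p = 0.0257), 0.18 for Scn2b (unadjusted p = 0.0378), 0.03 for Scn3a and 2588 genes at unadjusted p under 0.05, slide as a random block 1892 and no filter 1406. The mean of a gene's kept probes gave 2 genes past the threshold.

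Leaving out each mouse gave 1 to 2 genes past the threshold (2 without cKO replicate 4) and 725 to 1128 at unadjusted p under 0.05. Differences then ran from -1.46 to -1.31 for Map3k12, 0.15 to 0.36 for Scn1a, 0.02 to 0.19 for Scn2a, -0.12 to 0.00 for Scn3a, -0.01 to 0.07 for Scn8a, 0.08 to 0.19 for Scn2b and 0.00 to 0.49 for Scn4b. For the other probes that turned they ran from -0.01 to 0.13 for Scn2a A_55_P2106514, -0.03 to 0.07 for Scn8a A_55_P2072333 and -0.08 to 0.01 for Scn3a A_51_P398037. Scn1a had an unadjusted p of 0.0254 without cKO replicate 5 and 0.0355 without WT replicate 5, Scn2b of 0.0324 without WT replicate 5 and Scn4b of 0.0443 without WT replicate 1. Deviations of same-numbered cKO and WT mice from their group means correlated at -0.188, -0.03, 0.162, -0.378 and -0.56. Same-numbered mice were thus not alike in these values, which cannot exclude a pairing that the labels do not state. A fit with the replicate block gave 1 gene past the threshold, 609 at unadjusted p under 0.05 and 0.26 for Scn1a. Scan date coincided with slide and was not run apart from it.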
